A study of Mus musculus with 6 samples.

Results

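The tripartite motif (TRIM) genes are the rows of the count table whose symbol begins with Trim followed by a digit. There were 68 such rows among 23608, and 40 of them had enough reads to be tested. TRIM proteins are ubiquitin ligases built on a RING finger, B-box zinc fingers and a coiled coil, and their last domain sets the partner: a SPRY domain in most, a PHD finger and bromodomain in the chromatin corepressors, NHL repeats or a COS box in others. Several act in innate immunity. They place ubiquitin chains on viral RNA sensors and their adaptors or bind viral capsids, and some of them are themselves induced by interferon. A few lack the RING finger and work as adaptors.

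The study measured RNA of leukaemia cells driven by AE9a, a truncated AML1-ETO fusion delivered with GFP by a retrovirus. The cells carried 1 floxed copy of Usp18 (Usp18+/f) and a tamoxifen-activated Cre recombinase. Recipient mice with established leukaemia received oil (3 mice, Usp18+/f) or tamoxifen (3 mice, Usp18+/Δ), and splenic Lin- c-Kit+ GFP+ cells were sorted on day 3 counted from the first injection. USP18 restrains type I interferon signalling, and the comparison asks how expression shifts when 1 copy is removed. All 6 libraries share AE9a, the floxed allele and the Cre, and none came from tamoxifen given without Cre, so an effect of the drug and an effect of the deletion cannot be told apart here. The study used young adult mice of both sexes, and the sex behind each library was not given in the sources used here.

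Each library held between 17118964 and 20741399 counts. Libraries are named by group and by the number in the table, and these numbers do not match the sample titles: the titles number oil 1, 2 and 4 and tamoxifen 1, 3 and 4, whereas the table has oil 1, 3 and 4 and tamoxifen 1, 2 and 4. Groups follow the names in the table. The targeted gene did not fall: Usp18 was at 9.12, 10.95 and 11.2 CPM (the count scaled to a common total over tested genes) in oil 1, 3 and 4, against 15.1, 28.0 and 19.4 CPM in tamoxifen 1, 2 and 4 (edgeR adjusted p-value 0.0739). Counts per gene symbol do not separate the intact from the deleted copy, so Usp18 RNA can neither bear out nor refute the labels. Each direction below therefore rests on the labels tamoxifen and oil as the table gives them, and a log2 difference is tamoxifen minus oil. Tamoxifen 4 stood apart from its group, with a correlation of 0.982 to 0.985 with the oil libraries and of 0.970 and 0.973 with the other tamoxifen libraries. Results are therefore given with and without it. This library was singled out after these values were seen. Leaving it out keeps the tamoxifen libraries farthest from oil, so p-values without it are a description and no support for a difference. Over all genes, edgeR calls went from 234 with all 6 libraries to 4302 without tamoxifen 4. The sorted cells had Kit at 439 to 782 CPM, as the sort requires, and Myb at 378 to 439 CPM. The progenitor gene Cd34 was at 8.41 to 11.7 CPM in oil and at 113, 134 and 41.8 CPM in tamoxifen 1, 2 and 4 (log2 difference 3.28, adjusted p-value 0.0232), and its part in the TRIM values was not tested. The pan-leukocyte gene Ptprc did not exceed 0.679 CPM and the myeloid granule gene Mpo did not exceed 0.207 CPM, whereas the erythroid gene Klf1 was at 285 to 371 CPM.

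Among the TRIM genes, the levels spanned over 3 orders of magnitude per unit of length. Levels are compared between genes as CPM per kb of exonic length. Trim28, the corepressor known as KAP1 that KRAB zinc finger proteins recruit to silence retroelements, was the highest in oil at 118 ± 5.26 CPM per kb (SD, n = 3). The next were Trim59, an endoplasmic reticulum membrane protein, at 31.2 ± 1.19, Trim35 at 27.7 ± 1.07, the RIG-I ligase Trim25 at 25.3 ± 1.23, Trim27 at 23.6 ± 0.574 and Trim8 at 22.7 ± 1.603 CPM per kb. In oil, the ranges of Trim35 (26.68 to 28.8) and Trim25 (24.3 to 26.69 CPM per kb) barely met, those of Trim25 and Trim27 (22.98 to 24.1) did not, and Trim8 (21.7 to 24.6) overlapped both Trim25 and Trim27. At the other end, Trim66 and Trim45 lay at 0.0790 and 0.139 CPM per kb. Trim28 alone gave 23.4% to 24.9% of the summed CPM of the 68 genes in the oil libraries, 18.02% and 17.7% in tamoxifen 1 and 2, and 23.1% in tamoxifen 4. The sum over all TRIM genes was 2021 to 2062 CPM in oil and 2018 to 2176 CPM in the libraries labelled tamoxifen, so the groups overlapped in the total.

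**Figure D1:**
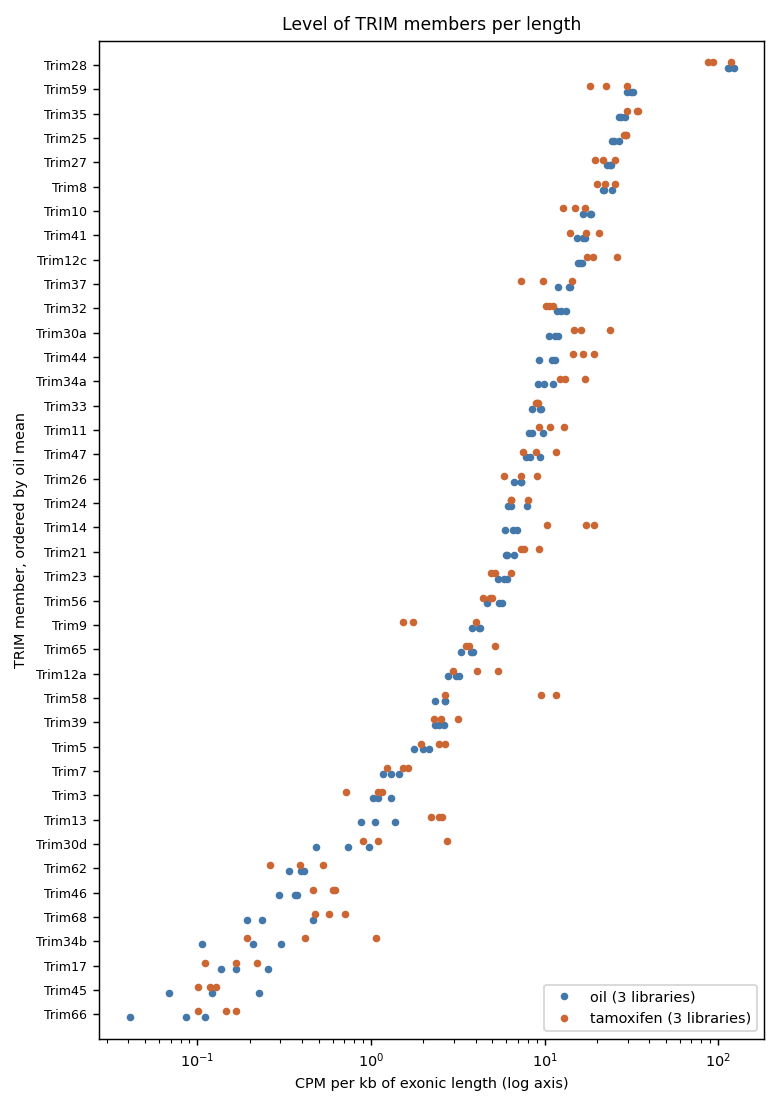
CPM per kb of exonic length on a log axis for the 40 tested TRIM genes, 1 point per library, oil in blue and tamoxifen in orange, ordered by the oil mean. Trim28 lies above all others in both groups at 118 CPM per kb in oil, and Trim14 shows all 3 tamoxifen points to the right of its oil points.

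The other 28 genes were too low to be tested, and no library held more than 19 counts of any of them. For 16 there were 0 counts in all 6 libraries, which allows up to 0.177 CPM (3 counts in tamoxifen 2). This limit covers counting error alone, because without molecular identifiers reads are not separate molecules. These 16 included the muscle ligases Trim54, Trim55 and Trim72, the neuronal gene Trim67 and the pseudogene Trim30e-ps1. Trim63, the muscle atrophy ligase MuRF1, had 5 counts in oil 3 and at most 1 elsewhere. A few untested genes had more reads in the libraries labelled tamoxifen. Trim30b had 1 count in each oil library and 7, 19 and 15.5 counts in tamoxifen 1, 2 and 4. Trim6 had 3, 0 and 3 counts in oil and 11, 5 and 8 in tamoxifen, and Trim38 had 3.5, 2 and 3 counts in oil and 11, 8 and 6 in tamoxifen. The groups did not overlap for any of these 3, which were picked after their counts were seen. Of all tested genes 13.3% were higher without overlap, and the share among genes too low to test was not computed. The other 8 with some reads were Trim2, Trim15, Trim16, Trim36, Trim43a, Trim43b, Trim43c and Trim71, with at most 11.5 counts (Trim2 in tamoxifen 1).

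To ask which TRIM genes differed between the groups, all 11614 tested genes were fitted together with the edgeR quasi-likelihood test. At an adjusted p-value under 0.05, Trim14 and Trim44 were higher in the libraries labelled tamoxifen and 0 TRIM genes were lower. That is 5.0% of the 40 tested, where 2.01% of all tested genes were called (1.75% higher and 0.267% lower). With p-values left unadjusted, 13 were higher and 2 lower at 0.05 (37.5% together), against 12.6% and 7.99% of all genes (20.6% together). Groups were separate in CPM for 11 genes that were higher and 2 that were lower, together 32.5% of the tested TRIM genes, where 25.0% of all genes were separate (13.3% higher and 11.8% lower). The log2 difference was positive for 26 of the 40, beside 5809 of all 11614 genes, with a median of 0.15 and a range from -0.74 to 1.64, and the median over all tested genes was 0.00012. In a bulk sample, a lower level can mean fewer cells that express a gene or less RNA per cell, and these cannot be told apart. Without tamoxifen 4, 13 TRIM genes were higher and 4 lower, where 19.2% and 17.1% of all genes (36.3% together) were called. Without any 1 of the other 5 libraries, 0 TRIM genes were called, beside 7 to 13 at an unadjusted p-value under 0.05, and over all genes 8 to 16 were called, beside 1373 to 1659 at that unadjusted p-value.

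**Figure D2:**
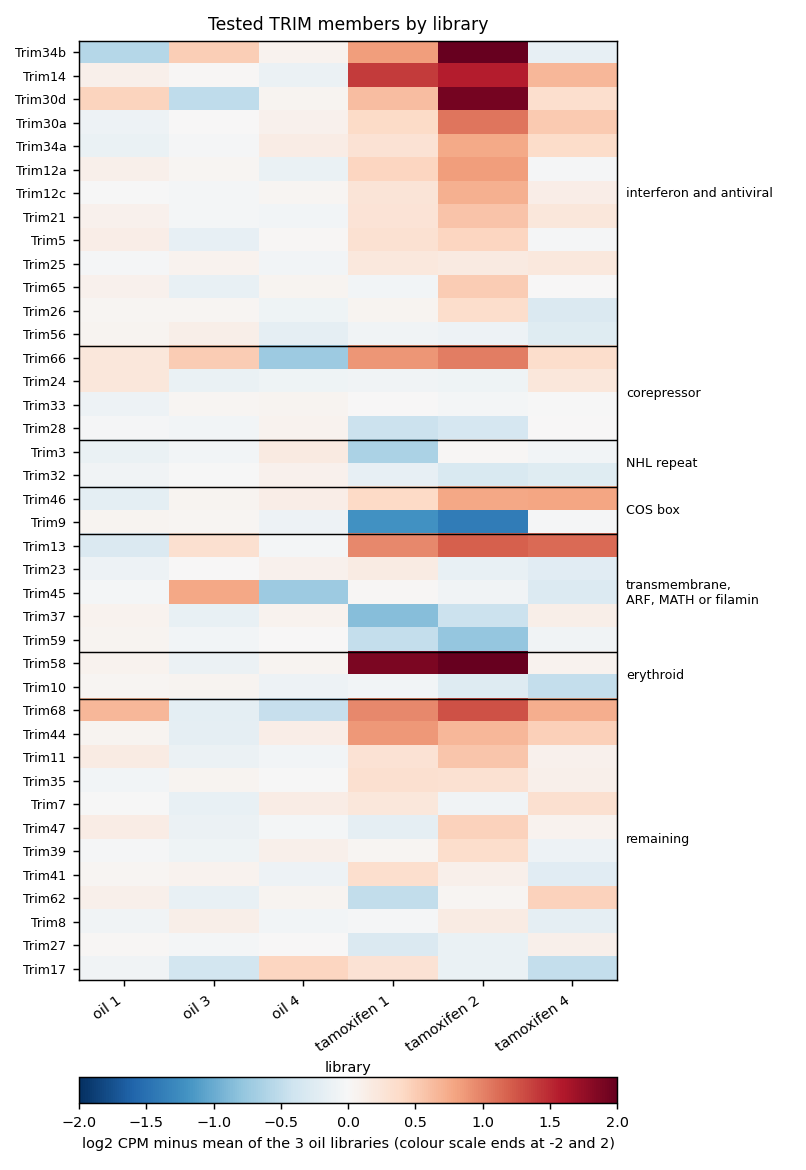
log2 CPM of each tested TRIM gene in each library minus the mean of the 3 oil libraries, red above and blue below that mean, grouped by role. The interferon and antiviral genes are mostly red in tamoxifen 2, and Trim58 and Trim9 are strongly coloured in tamoxifen 1 and 2 but pale in tamoxifen 4.

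Trim14 (chromosome 4, 46493781 to 46536141, minus strand, mm10) encodes a RING-less adaptor that joins the antiviral MAVS complex on mitochondria. Trim14 stood at 30.1, 28.6 and 25.8 CPM in oil 1, 3 and 4, where tamoxifen 1, 2 and 4 had 74.6, 83.5 and 44.7 CPM. All the libraries labelled tamoxifen lay above all the oil libraries, with tamoxifen 4 the lowest of them. The mean rose from 28.1 ± 2.16 to 67.6 ± 20.3 CPM (3 libraries each, ± SD), a log2 difference of 1.26 (SE 0.21, edgeR adjusted p-value 0.0398). The adjusted p-value was 1.28e-05 without tamoxifen 4, and 0.0945 to 0.202 without any other single library. The call was thus lost without any 1 of oil 1, 3 and 4 and tamoxifen 1 and 2. Over all genes those fits called 8 to 16, against 234 with all 6 libraries, so this loss was not particular to Trim14. Its log2 difference stayed between 1.09 and 1.49 with 1 library left out. Of its exonic length, 38.0% overlaps genes on the opposite strand, among them Nans and the transcript Gm16731, and the strand setting of the counting was not stated. Nans was at 135 to 145 CPM in oil and 122 to 136 CPM in tamoxifen (adjusted p-value 0.506). Gm16731 rose with Trim14, at 4.05, 3.05 and 2.60 CPM in oil and 16.4, 18.8 and 8.07 CPM in tamoxifen (log2 difference 2.16, adjusted p-value 0.0331), and reads of the gene and of this partner cannot be told apart.

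Trim44 (chromosome 2, 102300119 to 102407828, minus strand) encodes a RING-less relative with a zinc finger of the ubiquitin protease type. It was at 62.0, 52.4 and 65.0 CPM in oil 1, 3 and 4, where tamoxifen 1, 2 and 4 had 109, 94.0 and 82.5 CPM, without overlap. The mean rose from 59.8 ± 6.58 to 95.0 ± 13.1 CPM (3 libraries each, ± SD), a log2 difference of 0.67 (SE 0.13, adjusted p-value 0.0451). It was 0.000594 without tamoxifen 4 and 0.121 to 0.209 without any of the other 5 libraries, with a log2 difference of 0.56 to 0.76. Its exons overlap no other gene, and it shares no stretch of 100 bases with another. DESeq2, which the study used, called both genes and also Trim58, Trim13 and Trim30a, which is 5 TRIM genes higher and 0 lower where 6.14% and 1.99% of all genes (8.13% together) were called.

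**Figure D3:**
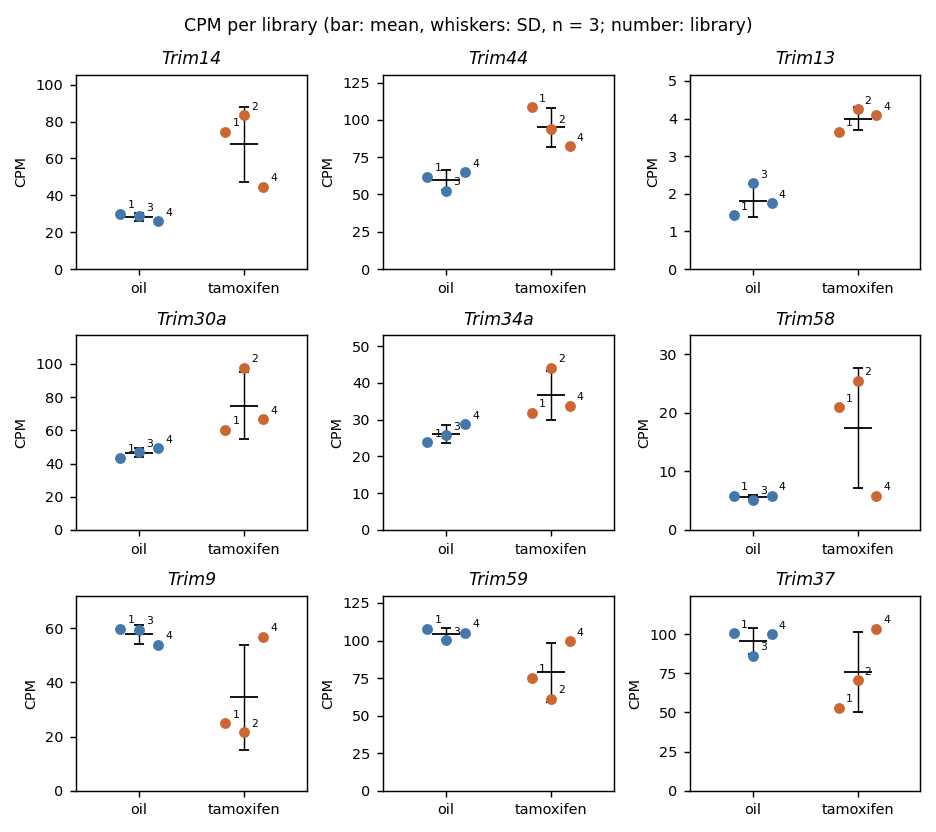
CPM of 9 TRIM genes in each library, with the library number beside each point, a bar at the group mean and whiskers of 1 SD (n = 3). The tamoxifen points of Trim14, Trim44, Trim13, Trim30a and Trim34a all lie above their oil points, whereas tamoxifen 4 lies within or next to the oil points for Trim58, Trim9, Trim59 and Trim37.

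The genes known for interferon induction or antiviral signalling leaned to higher values in the libraries labelled tamoxifen. There were 16 of them, 13 were tested, and 12 of these had a positive log2 difference, with a median of 0.39 and a range from -0.14 to 1.31. Trim14 alone was called, 7 were higher at an unadjusted 0.05, and 6 had separate groups, where 12.6% and 13.3% of all genes did. Without tamoxifen 4, 8 of them were called higher and 0 lower, where 19.2% and 17.1% of all genes were. This list was drawn up with earlier results of these data known, so its direction is a description.

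Most of this group lies in 1 stretch of chromosome 7, from 104218793 to 104535361, where 10 TRIM genes sit next to each other. The 7 that were tested all had a positive log2 difference, from 0.25 to 1.31 with a median of 0.49. No other gene in this interval was tested. Trim30a, which curbs NF-kB signalling by removing TAB2 and TAB3, had the next highest CPM there after Trim12c. It was at 43.5, 46.8 and 49.2 CPM in oil 1, 3 and 4, where tamoxifen 1, 2 and 4 had 60.3, 97.7 and 66.8 CPM. The groups did not overlap, and tamoxifen 2 was the highest. The log2 difference was 0.69 (SE 0.18, edgeR adjusted p-value 0.0911), and the adjusted p-value was 0.00571 without tamoxifen 4, 0.132 without tamoxifen 2 (log2 difference 0.45) and 0.00845 with DESeq2. Its neighbour Trim30d was at 3.66, 1.82 and 2.78 CPM in oil and 4.12, 10.2 and 3.37 CPM in tamoxifen, so the groups overlapped and tamoxifen 2 was the highest (log2 difference 1.10, adjusted p-value 0.234). The adjusted p-value of Trim30d was 0.0215 without tamoxifen 4 (log2 difference 1.39) and 0.616 without tamoxifen 2 (log2 difference 0.45). Trim34a was at 23.9, 25.7 and 28.8 CPM in oil and at 31.9, 44.1 and 33.8 CPM in tamoxifen, without overlap (log2 difference 0.49, adjusted p-value 0.138, and 0.0168 without tamoxifen 4). Trim34b was at or below 0.557 CPM in oil and at 0.768, 1.98 and 0.359 CPM in tamoxifen (log2 difference 1.31, SE 0.70, adjusted p-value 0.314). For Trim34b this was 0.0434 without tamoxifen 4 (log2 difference 1.73) and 0.809 without tamoxifen 2 (log2 difference 0.42). Tamoxifen 2 was also the highest of the 6 libraries for Trim5, Trim12a and Trim12c, mouse relatives of the capsid-binding TRIM5 alpha. Their log2 differences were 0.25, 0.45 and 0.39, with adjusted p-values of 0.458, 0.263 and 0.212. Without tamoxifen 4, Trim12a (0.00697) and Trim12c (0.00951) were called and Trim5 (0.125) was not. Copies in this stretch share sequence. Of the 100-base stretches of its annotated transcripts, Trim34b shares 30.5% and Trim34a 21% with each other, Trim5 shares 11.7% and Trim12c 8.05% with other genes, chiefly of this group, and Trim30a and Trim30d share 4.41% and 4.57% with each other. Of the exonic length of Trim34a, 23.5% also overlaps Gm47248 on the opposite strand. The counting program was not stated, so reads may be split between these copies and their single values are uncertain.

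The promoters of this stretch were compared next. RefSeq promoter windows of GRCm38.p6, which is mm10, with 250 bases before and 50 after the start, were searched on both strands for the core of the interferon-stimulated response element, which is GAAA, 2 free bases and GAAA again. Of 52 TRIM genes with a window, 9 held the core (17.3%), beside 3.99% of the 27025 genes in that table. They were Trim2, Trim5, Trim12a, Trim12c, Trim21, Trim26, Trim30a, Trim30d and Trim34a. The windows of 30 bases around the core are given for the chromosome 7 genes, 5′ to 3′ on the strand of the gene, with the core in capitals, because the copies can be compared base by base:

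Trim5, chr7:104288136-104288165, minus strand: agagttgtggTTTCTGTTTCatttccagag

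Trim12a, chr7:104315466-104315495, minus strand: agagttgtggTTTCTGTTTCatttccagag

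Trim12c, chr7:104353359-104353388, minus strand: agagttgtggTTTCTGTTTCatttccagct

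Trim30a, chr7:104465210-104465239, minus strand: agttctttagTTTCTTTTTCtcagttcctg

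Trim30d, chr7:104507871-104507900, minus strand: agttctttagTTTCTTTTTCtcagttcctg

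Trim34a, chr7:104244457-104244486, plus strand: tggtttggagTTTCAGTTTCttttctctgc

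Trim21, chr7:102565444-102565473, minus strand: agaggaaactGAAAGTGAAAtttggactgc

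The windows of Trim5 and Trim12a agree in 30 of 30 bases, those of Trim12c and Trim5 in 28, and those of Trim30a and Trim30d in 30. In all those printed but Trim21 the core reads on the strand opposite to the gene. Trim30a has a further core at a downstream start, identical to the one printed in 26 of 30 bases. Trim21 holds a pair of overlapping cores, of which the one shown lies nearer to the 3′ end. Among the 8 genes with a core that were tested (Trim2 was not), all 8 had a positive log2 difference, from 0.063 to 1.10 with a median of 0.42, and 4 were higher without overlap. Among the 24 tested genes with a window and no core, 14 had a positive value, with a median of 0.072, and 5 were higher without overlap, where 13.3% of all genes were. Trim34b, Trim30b and Trim44 had a window with no core, and Trim14 had no window in the table. A match describes letters only, and genes with a core overlap the antiviral list and the duplicated copies, so the sets are not independent.

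Beside Trim14, antiviral genes outside this stretch included Trim25, Trim21, Trim26, Trim65 and Trim56. Trim25, the ligase that places ubiquitin on RIG-I, was at 144, 154 and 140 CPM in oil and at 168, 166 and 169 CPM in tamoxifen. The groups were separate and the libraries labelled tamoxifen lay close together, with a log2 difference of 0.20 (SE 0.078, adjusted p-value 0.213). It remained outside the threshold without tamoxifen 4 (0.0576). Trim21, a cytosolic receptor for antibodies, was at 22.3 to 24.8 CPM in oil and 27.0 to 34.5 CPM in tamoxifen, without overlap (log2 difference 0.36, adjusted p-value 0.187, and 0.0208 without tamoxifen 4). Trim26, Trim65, which acts on MDA5, and Trim56, which acts on STING, had log2 differences of 0.063, 0.17 and -0.14 with overlapping groups.

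The corepressors with a PHD finger and bromodomain were not called. Trim28 was at 480, 472 and 513 CPM in oil 1, 3 and 4, where tamoxifen 1, 2 and 4 had 364, 386 and 493 CPM. Tamoxifen 1 and 2 lay below every oil library and tamoxifen 4 lay among them, with a log2 difference of -0.24 (SE 0.12, adjusted p-value 0.309). Without tamoxifen 4 the log2 difference was -0.38 with an adjusted p-value of 0.00293, and without tamoxifen 1 it was -0.15 with 0.609. Trim33, a regulator of Smad signalling, was nearly level at 83.3, 92.4 and 93.4 CPM in oil and 89.5, 87.4 and 88.7 CPM in tamoxifen (log2 difference -0.018, SE 0.083). Trim24, a nuclear receptor cofactor and p53 ligase, was at 67.7, 52.4 and 54.2 CPM in oil and 54.7, 54.3 and 67.9 CPM in tamoxifen (log2 difference 0.022, SE 0.14). The signs of both values changed when single libraries were left out. Trim66, the germ cell member, was at 0.412 to 1.11 CPM in oil and 1.02 to 1.68 CPM in tamoxifen, with overlap (log2 difference 0.76, SE 0.44, adjusted p-value 0.348).

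Some genes with a membrane anchor or a cytoskeletal role had tamoxifen 1 and 2 well below all oil libraries and tamoxifen 4 near them. Trim9, a brain-enriched ligase with a COS box that binds microtubules, was at 59.9, 59.4 and 53.9 CPM in oil and at 24.9, 21.7 and 56.9 CPM in tamoxifen 1, 2 and 4. Tamoxifen 4 lay within the oil range. The log2 difference was -0.74 (SE 0.33, adjusted p-value 0.247), and -1.31 (SE 0.10) with 3.72e-05 without tamoxifen 4, but -0.50 with 0.535 without tamoxifen 2. Trim59 was at 108, 100.1 and 105 CPM in oil and 75.4, 61.3 and 99.7 CPM in tamoxifen. Its groups were narrowly separate, with a log2 difference of -0.41 (SE 0.16, adjusted p-value 0.223), and -0.61 with 0.00129 without tamoxifen 4, but -0.25 with 0.475 without tamoxifen 2. Trim37, a ligase of centrioles and peroxisomes, was at 100.4, 86.3 and 99.96 CPM in oil and 52.98, 70.7 and 103 CPM in tamoxifen (log2 difference -0.34, SE 0.22, adjusted p-value 0.391, and -0.63 with 0.00364 without tamoxifen 4, but -0.135 with 0.748 without tamoxifen 1). Trim13, an endoplasmic reticulum ligase that degrades misfolded proteins, was higher in each library labelled tamoxifen than in any oil library. It was at 1.44, 2.28 and 1.75 CPM in oil and at 3.65, 4.25 and 4.09 CPM in tamoxifen, so the groups were separate. Its log2 difference was 1.12 (SE 0.27, edgeR adjusted p-value 0.0800). The edgeR adjusted p-value was 0.0196 without tamoxifen 4 and 0.175 to 0.3006 without any other single library. With DESeq2 the adjusted p-value was 0.00976. Trim46, which bundles axonal microtubules, was at 1.13 to 1.41 CPM in oil and 1.76 to 2.35 CPM in tamoxifen, without overlap (log2 difference 0.70, adjusted p-value 0.236). Trim45, with a filamin repeat, stayed between 0.412 and 1.36 CPM in all 6 libraries. Of the NHL repeat genes, Trim32 was at 38.2, 40.1 and 42.8 CPM in oil and 35.9, 32.7 and 34.0 CPM in tamoxifen, without overlap (log2 difference -0.24, adjusted p-value 0.225), and Trim3 overlapped (log2 difference -0.21, adjusted p-value 0.623).

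The erythroid TRIM genes Trim58 and Trim10 had opposite signs, neither past the threshold. Trim58, which helps erythroblasts to shed their nucleus by degrading dynein, was at 5.88, 5.14 and 5.81 CPM in oil 1, 3 and 4, where tamoxifen 1, 2 and 4 had 20.9, 25.5 and 5.86 CPM. Tamoxifen 1 and 2 stood above every oil library, and tamoxifen 4 was level with the oil libraries. The log2 difference of 1.64 (SE 0.46, edgeR adjusted p-value 0.117) was the highest of the 40 tested TRIM genes. The edgeR adjusted p-value was 2.84e-05 without tamoxifen 4 (log2 difference 2.05) and 0.2965 to 0.3467 without any other single library. With DESeq2 the adjusted p-value was 0.00446. Trim10, a factor of erythroid maturation, was at 41.0, 41.5 and 37.3 CPM in oil and at 38.2, 33.5 and 28.6 CPM in tamoxifen (log2 difference -0.26, SE 0.13, adjusted p-value 0.290). All 9 erythroid markers were detected, of which 5 had a positive and 4 a negative log2 difference. With all 6 libraries, 0 were higher and 3 lower without overlap, where 13.3% and 11.8% of all genes were. At an unadjusted p-value under 0.05 (edgeR) 0 were higher and 3 lower, where 12.6% and 7.99% of all genes were. Without tamoxifen 4, 5 were called higher and 3 lower, where 19.2% and 17.1% of all genes were. Their summed level was 3906 to 6178 CPM in oil and 3126 to 7517 CPM in tamoxifen. The globin gene Hba-a1 was at 2294 and 2435 CPM in tamoxifen 1 and 2 and at 893 CPM in tamoxifen 4, against 1144 to 1916 CPM in oil, with overlap. Klf1 went the other way and was 1 of the 3 lower without overlap. It was at 363 to 371 CPM in oil and 285 to 312 CPM in tamoxifen (log2 difference -0.29, edgeR adjusted p-value 0.105). The part of these markers in the Trim58 values was not tested.

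Of the genes with other roles, Trim35 was at 123 to 133 CPM in oil and 137 to 159 CPM in tamoxifen, without overlap (log2 difference 0.24, adjusted p-value 0.204, and 0.00777 without tamoxifen 4). Trim68 was at 1.604, 0.824 and 0.669 CPM in oil and 2.00, 2.45 and 1.66 CPM in tamoxifen (log2 difference 0.998, SE 0.40, adjusted p-value 0.223). Trim27 and Trim8 overlapped between the groups, with log2 differences of -0.095 and -0.013. The other 8 tested genes (Trim7, Trim11, Trim17, Trim23, Trim39, Trim41, Trim47 and Trim62) had overlapping groups and log2 differences from -0.13 (Trim17) to 0.32 (Trim11), and of these Trim11 was called higher without tamoxifen 4 (adjusted p-value 0.021).

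**Figure D4:**
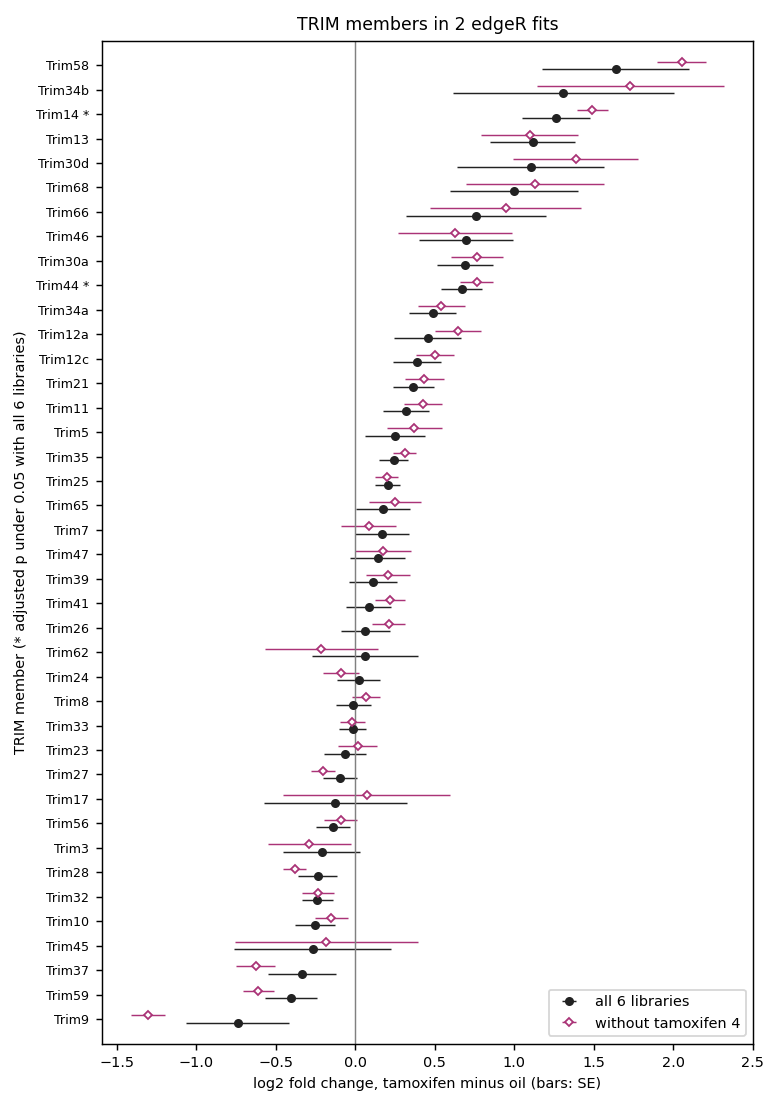
log2 difference between libraries labelled tamoxifen and oil for the 40 tested TRIM genes, with SE bars, from all 6 libraries (black circles) and without tamoxifen 4 (open diamonds). Trim9 moves from -0.74 to -1.31 and Trim58 from 1.64 to 2.05, while Trim13, at 1.12 and 1.10, hardly moves.

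Among the tamoxifen libraries, tamoxifen 2 had the largest absolute shift from the oil mean for 22 of the 40 tested TRIM genes and tamoxifen 4 the smallest for 20. The median shift of the TRIM genes was 0.22, 0.33 and 0.069 log2 units in tamoxifen 1, 2 and 4, where the median over all tested genes was between -0.000198 and 0.0056. Over all genes the libraries had the same order of absolute shift, with medians of 0.26, 0.28 and 0.13 log2 units in tamoxifen 1, 2 and 4, beside 0.30, 0.43 and 0.22 for the TRIM genes. In the oil libraries the median TRIM shift was -0.028 to 0.035.

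Some proteins of the family carry another symbol. Pml, the organiser of nuclear bodies, was at 191 to 224 CPM in oil and 172 to 218 CPM in tamoxifen (log2 difference -0.11, adjusted p-value 0.571). Mid1 was at 1.96 to 2.81 CPM in oil and 1.004 to 2.85 CPM in tamoxifen (log2 difference -0.45, adjusted p-value 0.538). Mefv, the pyrin gene, had 0 counts in all 6 libraries, and Mid2 reached 0.177 CPM in tamoxifen 2 alone.

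Of 37 partners through which TRIM proteins act, all were tested. Of these 1 was called higher and 0 lower, where 1.75% and 0.267% of all genes were, 20 had a positive log2 difference and the median was 0.013. The gene called was Ikbke, a kinase that phosphorylates IRF3, at 13.1, 11.7 and 10.6 CPM in oil and 23.2, 24.7 and 22.2 CPM in tamoxifen (log2 difference 0.98, adjusted p-value 0.0267). In the viral RNA sensing arm, 10 of 15 were positive. Irf7 had a log2 difference of 1.48 (adjusted p-value 0.114), Tmem173, which encodes STING, of 0.99 (0.109) and Ddx58, which encodes RIG-I, of 0.78 (0.0557), each without overlap. Of the 15 genes, 7 were higher and 2 lower without overlap, where 13.3% and 11.8% of all genes were. The lower genes were Tab1 (log2 difference -0.22, adjusted p-value 0.196) and Tab3. Ddx58 was at 32.2 to 33.7 CPM in oil and at 50.4, 72.4 and 47.1 CPM in tamoxifen 1, 2 and 4. Mavs was at 297 to 307 and 275 to 332 CPM. The substrates of Trim30a differed in sign, with Tab2 at 0.21 (adjusted p-value 0.262) and Tab3 at -0.29 (0.188), both short of the threshold. The partners of Trim28 in heterochromatin had 7 of 8 negative log2 differences, a median of -0.19 and 6 with groups that did not overlap, where 11.8% of all genes were lower without overlap. Cbx5, the heterochromatin protein HP1 alpha, was at 723, 667 and 695 CPM in oil and 396, 318 and 611 CPM in tamoxifen 1, 2 and 4 (log2 difference -0.65, adjusted p-value 0.159), and tamoxifen 4 was the nearest to oil. The methyltransferase gene Setdb1 was level at 107 to 111 and 100 to 120 CPM. Ubiquitin conjugating enzymes had a median of 0.063, with Ube2d1 at 0.46 (adjusted p-value 0.0844).

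Most markers of cells that the sort should remove were near 0. Every B cell and neutrophil marker stayed at or below 0.823 CPM in each library. The T cell genes Cd3e, Cd3g and Cd8a had 0 counts in all 6, and Nkg7 was the single gene of the T and NK list that was tested (1.13 to 2.47 CPM in oil and 7.65 to 56.4 CPM in tamoxifen, log2 difference 4.03, adjusted p-value 0.0410), so it rose. Macrophage markers summed to 4.94 to 8.84 CPM in oil and 9.42 to 22.6 CPM in the libraries labelled tamoxifen, where 5 of 7 tested were positive. Over all tested genes 5809 of 11614 were positive. Hmox1 was called higher (log2 difference 2.53, adjusted p-value 0.0426) and the other 6 were not called, where 1.75% of all genes were called higher. Hmox1, Vcam1 and Cd68, 3 of the 7, were higher without overlap, where 13.3% of all genes were. Vcam1 was at 0.489 to 1.04 CPM in oil and 1.85 to 4.28 CPM in tamoxifen (edgeR adjusted p-value 0.0696). Adgre1, the defining marker, did not exceed 0.590 CPM. The part of these markers in the TRIM values was not tested.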

How the data were processed

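Bulk RNA-seq of 6 libraries, 3 labelled oil and 3 labelled tamoxifen, was read from 1 table of estimated counts per gene symbol that the authors deposited unscaled. STAR, DESeq2 and mm10 are named in the submitters' processing notes. The counting program, annotation and strand setting were not given in the sources used here. Values step by 0.5, and 25.9% to 27.3% of them per library were not whole, so the counts were rounded before testing. A spreadsheet had turned 26 symbols into dates. These rows stayed in the library sizes.

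Column numbers 3 (oil) and 2 (tamoxifen) match no title and were used as replicates of the named group. Genes passing filterByExpr (11614, 40 TRIM) were tested with edgeR 4.0.16 in R 4.3.3 (TMM scaling, quasi-likelihood F test, no block), with Benjamini-Hochberg adjustment over all of them and a threshold of 0.05. The study names DESeq2, which was an alternative (1.42.0), as was voom in limma 3.58.1. Standard errors came from the F statistics, and log2 CPM used a prior count of 2. The script was tested on simulated counts. The result of 1 erythroid marker is not reported here. Replicates were not repeated libraries, with a chi-square per degree of freedom of at least 7.18. P-values of the fit with all 6 libraries and no block measure the spread between 3 mice a group. Fits without 1 library rest on fewer mice in that group.

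Positions, exonic lengths and shared stretches of 100 bases came from GENCODE M21 (mm10), where all 68 symbols matched. Promoters came from RefSeq (GRCm38.p6), where 52 matched. The genes and lists were chosen with earlier results of these data known. Full values are given for called TRIM genes, the 6 highest and 6 lowest log2 fold changes, the 6 highest levels per kb, all corepressors and up to 4 genes of each other role list. Of partners, the called gene and up to 4 with the largest differences are named. Values of Trim5, Trim12a, Trim12c, Trim21, Trim26, Trim34a, Trim56, Trim65, the untested genes, Gm16731, Nans, Mavs, Tab1, Tab2, Tab3, Setdb1, Ube2d1, Vcam1 and Cd68 were added after they were seen.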

Additional observations from a re-analysis of the deposited data

How the results depend on the processing

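The 2 TRIM genes called higher became 5 with the DESeq2 Wald test, 0 with limma-voom, 1 with a filter at a mean of 50 counts (Trim14) and 1 with the replicate block (Trim14). With limma-voom the adjusted p-values were 0.0653 for Trim14 and 0.0682 for Trim44, and 15 TRIM genes had an unadjusted p-value under 0.05. No low-count filter added Trim30b (log2 difference 3.76, adjusted p-value 0.0416). DESeq2 size factors, upper-quartile normalization and unrounded counts called the same 2 genes. Leaving out 1 library gave 0 to 13 TRIM genes higher and 0 to 4 lower, with 13 and 4 without tamoxifen 4. Over all genes, 203 higher and 31 lower became 713 and 231 with DESeq2, 48 and 6 with limma-voom, 372 and 61 with no filter, 120 and 17 at a mean of 50 counts, and ran from 8 to 2278 higher and 0 to 2024 lower with 1 library left out. The filter at 50 counts tests fewer genes. The cause was not tested for the rest. The median log2 difference of the tested TRIM genes ran from 0.072 to 0.21 and moved by less than the spread between the libraries labelled tamoxifen.

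Among the 24 genes named by rule, the sign changed only for Trim45, Trim8, Trim24 and Trim33, none of them called. Trim45 was 0.29 with the replicate block and ran from -0.60 to 0.28 with 1 library left out. Trim8 was 0.0026 with upper-quartile normalization and ran from -0.11 to 0.067. Trim33 was 0.016 with the replicate block and ran from -0.070 to 0.0078, and Trim24 ran from -0.090 to 0.14. With a prior count of 0.5 the median shift of each library moved by less than that spread.

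The replicate block can use numbers 1 and 4 alone, which leaves 1 residual degree of freedom. Their deviations from the group means had correlations of -0.127 and 0.0616, and the number is all these libraries have in common. Under the replicate block the median was 0.072, Trim14 had an adjusted p-value of 0.00213 and Trim44 of 0.120, and all genes gave 215 higher and 26 lower. Depth limits the 28 untested genes, for which counts alone are given.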
